A study of Homo sapiens with 3 samples.

Results

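The HOX genes are a family of homeobox transcription factors that sit in clusters named HOXA, HOXB, HOXC and HOXD, on 4 different chromosomes. The members described here were the genes whose symbol is HOX, a cluster letter and a number, and which had a probe set annotated to that gene alone. There were 24 of them among 22395 genes measured, out of 39 protein-coding HOX genes in the RefSeq table of GRCh38.p14. HOXB gave 9 members, HOXD 8, HOXC 6 and HOXA 1, which was HOXA2. The other HOX genes were not analysed here, and 4 probe sets annotated to several HOX genes were left out of the counts. Each member had 1 probe set, so no choice between probe sets was made.

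Within a cluster the genes are numbered from 1 to 13, and those with the same number in different clusters are paralogues that arose when the cluster was duplicated. In the embryo the low-numbered genes are expressed towards the head and the high-numbered genes towards the tail and the limb tips, so that each body level has its own combination. HOX proteins bind DNA through the homeodomain, often together with PBX and MEIS proteins. Retinoic acid and CDX factors help to switch the clusters on, Polycomb complexes keep them silent, and MLL and other trithorax complexes keep active genes active. In the kidney, genes of paralogue groups 10 and 11 are known for roles in early development.

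Expression was measured on 3 Affymetrix arrays of HEK293T cells, a widely used line made from human embryonic kidney that expresses SV40 large T antigen and is spelled HEK239T in one label. All 3 lines were infected with a pCDF1 lentivirus and selected in puromycin: 1 carried the empty vector, 1 wild-type TRAF7 and 1 the TRAF7 G536S mutant. TRAF7 is a ubiquitin ligase with WD40 repeats, and the control cells keep their own TRAF7 gene. The sources used here do not say whether each line was a pool or a clone. With 1 array per group there was no replicate, so no test was possible, and every difference below holds the difference between cultures, extractions and arrays as well as that between constructs. Both comparisons with the empty vector share the empty vector array.

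On the log2 scale of the deposited values, TRAF7 itself was at 5.66 with no added TRAF7, at 8.11 with wild type and at 7.35 with G536S. The 75th percentile of all 53617 probe sets was 1.73, 1.85 and 1.86 on these arrays, so the empty vector array was lower in its upper part. Of the kidney markers, 6 of the 9 measured lay at or above the median gene (a mean of 1.21 over the 3 arrays), among them EYA1, SALL1 and WT1, whereas PAX8, CDH16 and AQP1 lay below it. The 3 leukocyte and 3 endothelial markers measured all lay below it. Their summed levels ran from 2.44 to 2.65 and from 2.66 to 2.78 over the arrays. Of the neural markers 2 of 4 lay at or above it, with NEFL at a mean of 5.97, of the epithelial markers 2 of 4, and of the fibroblast markers 1 of 3. Over the empty vector, wild-type and G536S arrays the neural markers summed to 10.98, 11.07 and 10.04, the epithelial ones to between 4.24 (wild type) and 4.56 (G536S), and the fibroblast ones to 4.33, 4.27 and 4.10. The part of other cell types in the differences below was not tested.

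The start regions of 3 members are shown because they share the letters TGATNNAT, which are those of a joint PBX and HOX binding site, and because HOXA2 had the largest difference of all members. The sequences are from RefSeq (GRCh38.p14), which gave a start region for 9 of the 24 members. Each runs from 250 bases before to 50 bases after the gene's start on the gene's strand, and capitals mark every match to a motif searched. HOXA2 lies at chr7:27102634-27102933 on the minus strand, HOXB1 at chr17:48530962-48531261 on the minus strand, and HOXD11 at chr2:176107030-176107329 on the plus strand. In HOXD11 the first capitals are a match to GGGCGG on the opposite strand.
HOXA2: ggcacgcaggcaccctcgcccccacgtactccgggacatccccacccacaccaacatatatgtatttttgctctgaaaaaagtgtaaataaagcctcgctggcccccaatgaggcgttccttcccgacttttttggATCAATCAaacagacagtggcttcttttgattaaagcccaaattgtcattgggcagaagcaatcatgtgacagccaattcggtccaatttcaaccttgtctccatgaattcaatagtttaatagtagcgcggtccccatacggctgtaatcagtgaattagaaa
HOXB1: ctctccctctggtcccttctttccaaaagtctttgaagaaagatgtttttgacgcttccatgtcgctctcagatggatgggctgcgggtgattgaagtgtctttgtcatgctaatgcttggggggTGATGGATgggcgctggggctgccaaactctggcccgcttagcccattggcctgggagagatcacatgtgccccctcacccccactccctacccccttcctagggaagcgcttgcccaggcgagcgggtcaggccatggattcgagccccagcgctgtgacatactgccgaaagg
HOXD11: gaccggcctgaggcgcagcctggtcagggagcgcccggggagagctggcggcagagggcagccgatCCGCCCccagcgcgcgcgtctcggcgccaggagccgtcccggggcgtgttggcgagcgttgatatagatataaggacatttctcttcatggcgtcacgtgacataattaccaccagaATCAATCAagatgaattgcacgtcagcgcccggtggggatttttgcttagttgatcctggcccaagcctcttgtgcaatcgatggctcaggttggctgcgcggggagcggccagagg

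The match began 114 bases before the start in HOXA2, 125 in HOXB1 and 67 in HOXD11, and in HOXA2 and HOXD11 it lay on the strand opposite to the one printed. Both of those windows hold the same run, ATCAATCA as printed. On both strands, TGATNNAT was found in 3 of the 9 members' windows (33.3%) and in 7.40% of all 35116 windows of this length. GGGCGG, the letters of a GC box, was found in 5 of 9 (55.6%) against 45.0% of all. TATAAA was found in 1 of 9, HOXD13, against 11.5%, and there its matches on the 2 strands overlap. CAATAAA, a core bound by high-numbered HOX proteins, and TGACTCA, the AP-1 letters, were found in 0 of 9, against 4.0% and 4.95%. A match describes letters and not binding, and the absence of these letters says nothing about a factor. HOXA2's window had 11 CpG pairs and HOXD11's had 27, where the median window had 14.

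Most HOX genes read at or above the median gene, and most lay below the 75th percentile of gene means (2.87). Of the 24 members, 20 lay at or above the median gene, where 11198 of all 22395 genes did. Of those 20, 15 lay between it and the 75th percentile. The other 5 lay above that percentile, where 5599 of all genes did. Those 5 were HOXB5, HOXB9, HOXD10, HOXD11 and HOXD13. The 4 members below the median gene were HOXB1, HOXC12, HOXD1 and HOXD12, which ranged from 0.81 to 1.09 over all 3 arrays and whose differences stayed between -0.10 and 0.13. Probe sets differ in how strongly they bind, so these levels place a gene within the array and do not rank one HOX gene's RNA against another's.

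**Figure D1:**
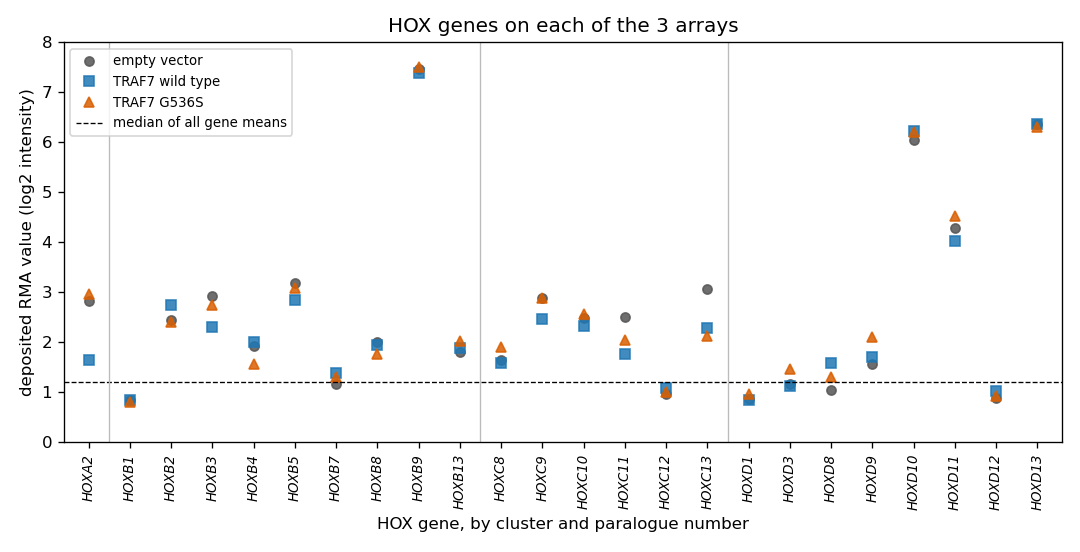
Deposited log2 RMA value (vertical axis) of each of the 24 HOX genes (horizontal axis, by cluster and number) on the 3 arrays, 1 point per array; the dashed line is the median of all gene means, 1.21. HOXA2 reads 1.65 with wild-type TRAF7 against 2.82 and 2.96 on the other arrays, while HOXB9, HOXD10 and HOXD13 lie close together on all 3.

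HOXA2, which patterns the hindbrain and the second pharyngeal arch, was the only HOXA gene measured. Its value was 2.82 in the empty vector array, 1.65 with wild-type TRAF7 and 2.96 with G536S. The wild-type array was thus low and the other two were near each other. HOXA2 was 2.24-fold lower with wild type than with the empty vector (-1.17), and 8 of 22395 genes had a difference as low or lower. G536S was 2.47-fold above wild type (1.31), where 11 genes were as high or higher. G536S against the empty vector gave 0.14, which became -0.01 after quantile normalization. As deposited, HOXA2 was the only HOX gene at least 2-fold apart in any comparison; HOXC13 with G536S also passed that fold after quantile normalization (-1.09) and cyclic loess (-1.06). Of all genes, 0.0804% were at least 2-fold lower and 0.397% higher with wild type, and 0.134% lower and 0.464% higher with G536S, each against the empty vector. Between G536S and wild type, 0.134% were at least 2-fold higher and as many lower.

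The first comparison set the array with added wild-type TRAF7 against the empty vector array. With wild type, 4 of the 24 HOX genes (16.7%) were at least 1.5-fold lower, where 0.911% of all genes were, and 0 were at least 1.5-fold higher, where 2.73% of all genes were. The lower genes were HOXA2, HOXB3, HOXC11 and HOXC13, and below a gene is said to be called when it is at least 1.5-fold apart. All 4 lay between the median and the 75th percentile of gene means. At that fold 1.79% of all genes at or above the median gene were lower, and 2.02% of the 5599 genes in the range of the 4, a range chosen after seeing the data. After quantile normalization the same fold was passed by 1.73% of all genes downwards and 1.59% upwards, and by 4 and 0 members. The median of the members was -0.025 and that of all genes -0.00075, with 14 members below 0 and 10 above. Among the 20 members at or above the median gene the median was -0.049, with 12 below 0, and that of all genes in this range was 0.082.

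**Figure D2:**
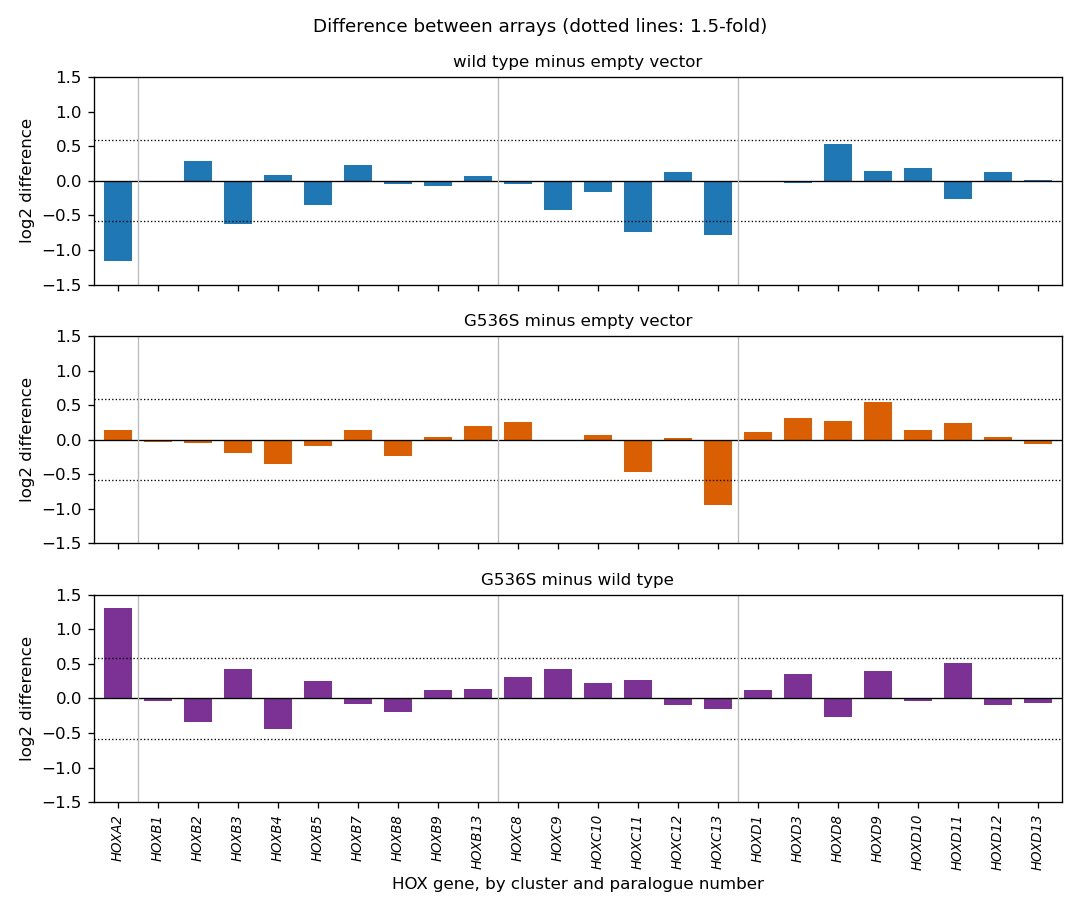
Log2 difference between 2 arrays (vertical axis) for each HOX gene (horizontal axis) in the 3 comparisons; bars start at 0 and dotted lines mark 1.5-fold. With wild type against empty vector HOXA2, HOXB3, HOXC11 and HOXC13 pass the lower line, with G536S against empty vector HOXC13 does, and with G536S against wild type HOXA2 passes the upper line.

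HOXB3, also a hindbrain gene, read 2.93 in the empty vector array, 2.31 with wild type and 2.74 with G536S. The wild-type array was again the lowest, 1.54-fold below the empty vector (-0.62), and G536S lay between the other two. This gene's annotated span contains that of HOXB4 and it shares a further probe set with a neighbour, and which part of its RNA the probe set reads is not known. HOXC11, of a paralogue group needed for kidney and hindlimb, read 2.50, 1.76 and 2.04 in the same order. It was 1.66-fold lower with wild type (-0.73) and lower by less with G536S (-0.46), so the empty vector array stood highest.

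HOXC13, which drives hair keratin genes in the follicle, read 3.07 in the empty vector array, 2.29 with wild type and 2.13 with G536S. Here both TRAF7 arrays were low and lay near each other, with a difference of -0.16 between them. HOXC13 was 1.72-fold lower with wild type (-0.78) and 1.92-fold lower with G536S (-0.94), where 38 of all genes were as low or lower. HOXB3, HOXC11 and HOXC13 thus had their highest value in the empty vector array, and HOXA2 had its highest with G536S. The wild-type array was the lowest for HOXA2, HOXB3 and HOXC11, and G536S was for HOXC13.

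**Figure D3:**
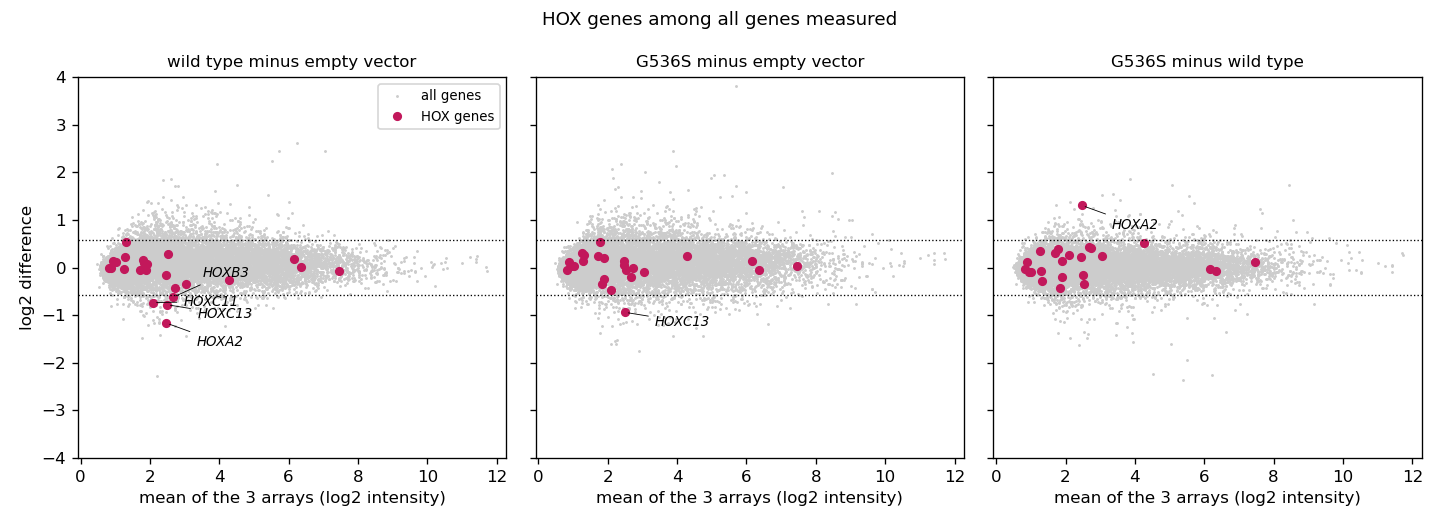
Log2 difference (vertical axis) against the mean of the 3 arrays (horizontal axis, log2 intensity) for 22395 genes (grey) and the 24 HOX genes (coloured), 1 panel per comparison, dotted lines at 1.5-fold. The 4 HOX genes below the line with wild type have means from 2.10 to 2.66, and HOXB9, HOXD10, HOXD11 and HOXD13 lie inside the lines in all 3 panels.

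In the HOXB cluster the median difference was -0.0036 with wild type, with 5 of 9 members below 0, where 11231 of all 22395 genes were. HOXB5, known in lung and gut nerve development, read 3.19, 2.84 and 3.09 on the empty vector, wild-type and G536S arrays. Its wild-type value was the lowest, by 0.35 against the empty vector (-0.35), short of 1.5-fold. HOXB2, the hindbrain paralogue of HOXA2, went the other way: it read 2.45, 2.74 and 2.41, a difference of 0.29 with wild type and of -0.04 with G536S. HOXB4, a factor of blood stem cells, read 1.92, 2.01 and 1.57, lowest with G536S (-0.35). HOXB8, a factor of myeloid progenitors, read 1.996, 1.95 and 1.76, also lowest with G536S (-0.24).

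HOXB9, a gene of trunk level, read 7.47, 7.40 and 7.51 and so spanned 0.12 over the 3 arrays. HOXB7 read 1.16, 1.38 and 1.30, close to the median gene, and was highest with wild type. HOXB13, best known from the prostate, read 1.81, 1.89 and 2.02, highest with G536S by 0.20 against the empty vector. HOXB1, which specifies the facial nerve's segment of the hindbrain, read 0.85, 0.84 and 0.81, below the median gene on every array. With G536S the cluster's median was -0.045 and 6 of 9 members were below 0, where 11471 of all 22395 genes were. After median centring the wild-type median became 0.02, so it had no direction that held under every scaling. The G536S median was below 0 under each, from -0.21 after quantile normalization to -0.012 after median centring.

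In the HOXC cluster 5 of 6 members were below 0 with wild type, and the median was -0.29. This count of 5 was also found after quantile normalization, median centring and cyclic loess, with medians from -0.44 to -0.26. Of all 22395 genes, 11231 were below 0 with wild type as deposited, as were 4184 of the 11198 at or above the median gene. HOXC9, which sets the identity of thoracic motor neurons, read 2.88 in the empty vector array, 2.46 with wild type and 2.88 with G536S. It thus resembled HOXA2 in having a low wild-type array, at a smaller size (-0.42). HOXC10, its lumbar counterpart, read 2.49, 2.33 and 2.56, a difference of -0.16 with wild type. HOXC8 read 1.64, 1.59 and 1.90, highest with G536S by 0.25 over the empty vector. HOXC12 read 0.97, 1.09 and 1.00, near background. With G536S the cluster's median was 0.016 with 4 of 6 members above 0, and it became -0.12 after quantile normalization, with 2 above 0.

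In the HOXD cluster the medians with both constructs lay above 0. With wild type 5 of its 8 members were above 0 (median 0.072), and with G536S 7 of 8 were (median 0.19). The count of 7 was also found under quantile normalization, median centring and cyclic loess, with medians from 0.12 to 0.23. No HOXD gene was 1.5-fold apart in any comparison. Of the 8 members, 6 lay at or above the median gene. Among all 11198 genes in that range, 7011 were above 0 with wild type (median 0.082) and 7154 with G536S (median 0.096). The HOXD median with wild type, over all 8 members, was thus near that of all genes in this range. With G536S the HOXD median was above it (0.19 against 0.096). HOXD8 read 1.05 in the empty vector array, 1.59 with wild type and 1.31 with G536S, and its difference of 0.54 with wild type was the highest of any member there, just short of 1.5-fold (0.58). HOXD9 read 1.56, 1.71 and 2.10, highest with G536S (0.54), which was also short of it.

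HOXD10, a gene of limb and lumbar motor neurons, read 6.05, 6.23 and 6.20. HOXD13, which shapes the digits, read 6.37, 6.38 and 6.31. They spanned 0.18 and 0.068 over the 3 arrays. HOXD11, the kidney and forearm paralogue of HOXC11, read 4.28, 4.02 and 4.53, and its G536S value exceeded its wild-type value by 0.51. HOXD3 read 1.16, 1.12 and 1.47, and was highest with G536S. Its annotated span overlaps that of HOXD4. HOXD1 read 0.86, 0.85 and 0.97, and HOXD12 read 0.89, 1.03 and 0.93. Across the 5 brightest HOX genes the median span over the arrays was 0.18, against 0.32 for all genes above the 75th percentile. Across the 15 members of the range below it was 0.42, against 0.27 for all genes there.

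By position along the cluster, the median difference with wild type was -0.014 for the 7 members of paralogue groups 1 to 4, -0.046 for the 5 of groups 5 to 8 and -0.033 for the 12 of groups 9 to 13. The called genes came from both ends, with 2 in groups 1 to 4 (HOXA2 and HOXB3), 2 in groups 9 to 13 (HOXC11 and HOXC13) and 0 between. The same-numbered genes HOXA2 and HOXB2 differed with wild type by -1.17 and 0.29. HOXC11 and HOXD11 differed by -0.73 and -0.27, and HOXC13, HOXB13 and HOXD13 by -0.78, 0.073 and 0.011. After quantile normalization HOXB13 and HOXD13 were below 0 (-0.042 and -0.087), as they were after cyclic loess (-0.018 and -0.090). HOXB2 stayed above 0 under each scaling, at its lowest 0.13 after quantile normalization. HOXA2 and HOXB2 therefore did not share a direction, while in group 13 the signs of HOXB13 and HOXD13 depended on the scaling.

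The second comparison set the G536S mutant against the empty vector array. Only HOXC13 was at least 1.5-fold lower, 1 of 24 (4.17%) where 1.07% of all genes were, and 0 were higher where 3.05% of all genes were. The members' median was 0.038 against -0.0047 for all genes, with 15 of 24 above 0. After quantile normalization HOXC11 (-0.62) also passed, which made 2 called lower, and the members' median became -0.0091 with 11 above 0.

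The G536S and wild-type arrays were also compared directly, without the empty vector array. HOXA2 was the only member at least 1.5-fold higher, 1 of 24 where 1.11% of all genes were, and 0 were lower where 0.929% of all genes were. The median of the members was 0.12 and that of all genes -0.0033, with 13 of 24 above 0. After HOXA2 the highest were HOXD11 (0.51), HOXB3 (0.43), HOXC9 (0.42) and HOXD9 (0.39). HOXB4 (-0.44) and HOXB2 (-0.33) were the lowest. HOXA2, HOXB3 and HOXC9 are thus the members whose wild-type array lay below both others by about 0.4 or more, and for HOXD11 that held against G536S alone.

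**Figure D4:**
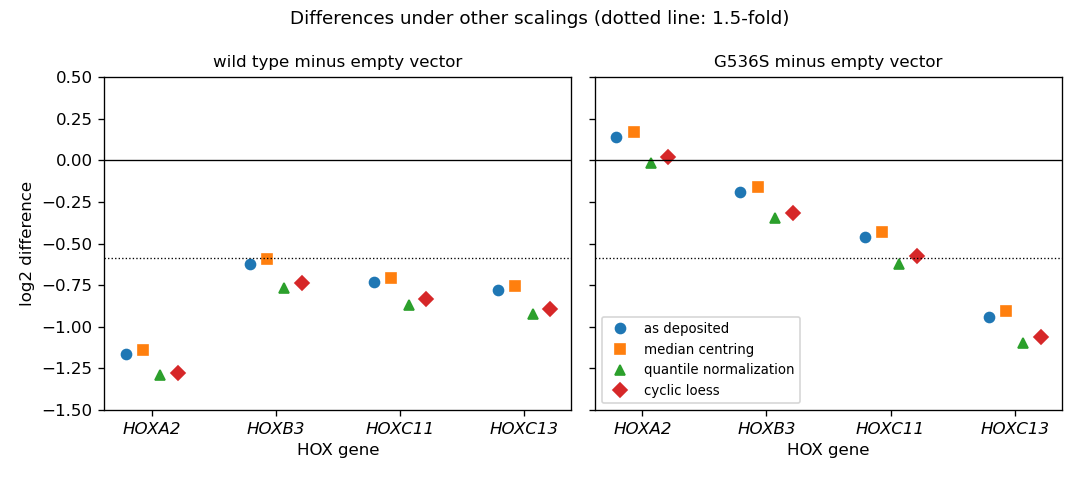
Log2 difference from the empty vector (vertical axis) of the 4 HOX genes at least 1.5-fold apart in any comparison, as deposited and after 3 other scalings (symbols); the dotted line is 1.5-fold lower. With wild type all 4 stay below it, HOXB3 closest at -0.59 after median centring, and with G536S HOXC13 does while HOXA2 lies on both sides of 0.

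The partners and regulators of the HOX genes were then read from lists chosen for their function. Of the 7 PBX, MEIS and PKNOX cofactors measured, 6 lay at or above the median gene and 0 were 1.5-fold apart in any comparison. Of all genes at or above the median gene, 5.42% were at least 1.5-fold higher and 1.79% lower with wild type. With G536S these shares were 6.07% and 2.08%, and between G536S and wild type 2.17% and 1.81%. MEIS2 read 3.86 in the empty vector array, 3.55 with wild type and 3.81 with G536S, lowest with wild type (-0.32), and PBX4, MEIS3 and PKNOX2 differed there by 0.22, 0.25 and -0.21. Of 8 homeobox genes related to the clusters (CDX, GSX, PDX and EVX genes) only CDX2 lay above the median gene. CDX2, an activator of HOX clusters in the tail of the embryo and in the gut, read 2.94, 2.23 and 2.34. It was highest with the empty vector, the same order of arrays as HOXC11, at -0.71 with wild type and -0.59 with G536S. The second of these was -0.56 after median centring, short of 1.5-fold. EVX1, which flanks the HOXA cluster, read 1.17, 0.94 and 0.90. CDX2 alone of these 8 genes was called as deposited, and the shares above (1.79% and 2.08%) are those for genes in its range. Across the 8 genes the median was -0.0042 with wild type and -0.091 with G536S, with 4 and 2 of them above 0.

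Among 16 retinoic acid genes measured, CRABP2, which carries retinoic acid to its receptor, was the one gene at least 1.5-fold apart in any comparison as deposited. Of all genes, 2.73% were at least 1.5-fold higher with wild type and 3.05% with G536S, each against the empty vector. CRABP2 read 1.57 in the empty vector array, 2.93 with wild type and 2.21 with G536S. The empty vector array was the lowest, and the differences were 1.36 and 0.65, the latter 0.52 after quantile normalization, and G536S lay below wild type (-0.72). The receptors RARA and RARG were lower with both constructs, short of 1.5-fold as deposited: RARA differed by -0.46 and -0.33 and RARG by -0.42 and -0.34. With wild type RARA passed that fold after quantile normalization (-0.60). CYP26A1, a retinoic acid-degrading enzyme and classic target, read 1.33, 0.97 and 1.08. The list's median was -0.094 with wild type and -0.095 with G536S.

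All 10 Polycomb repressive complex 2 genes measured lay above the median gene and 0 were called as deposited. Of all genes at or above it, 5.42% were at least 1.5-fold higher and 1.79% lower with wild type, and 6.07% and 2.08% with G536S. Between G536S and wild type 2.17% were higher and 1.81% lower. EZH1 read 5.18, 5.69 and 5.12, highest with wild type (0.51). Its G536S value lay below wild type by just under 1.5-fold (-0.57), and passed that fold after quantile normalization and cyclic loess, at -0.59 in both. EED and MTF2 were higher with wild type by 0.45 and 0.40. RBBP7, a histone-binding subunit, read 6.91, 6.71 and 6.49, lowest with G536S (-0.42). EZH2, the main methyltransferase, differed by 0.048 and 0.13. Of 11 complex 1 genes, PCGF6 was at least 1.5-fold higher with G536S, at 2.30, 2.69 and 3.10 (0.81). All 11 lay at or above the median gene, where 6.07% of all genes were at least 1.5-fold higher with G536S. PCGF2 and CBX6 were lower with G536S, short of 1.5-fold as deposited, at -0.56 and -0.45. After quantile normalization both passed that fold, at -0.71 and -0.60, and after cyclic loess PCGF2 did (-0.69). Both medians of complex 2 lay above 0 as deposited (0.063 and 0.048) and below 0 after quantile normalization (-0.043 and -0.094).

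Of 12 MLL and trithorax genes, 0 were called with wild type, while with G536S 2 were at least 1.5-fold higher and 2 lower. All 12 lay above the 75th percentile of gene means (2.87). Of all genes at or above it, 6.54% were at least 1.5-fold higher and 2.38% lower with G536S. With wild type these shares were 5.57% and 1.57%. MEN1, the menin subunit that tethers MLL to HOX genes, read 6.63 in the empty vector array, 6.64 with wild type and 5.86 with G536S. Its G536S array was the low one, at -0.77 against the empty vector and -0.78 against wild type. KDM6B, which removes the Polycomb mark, was also lowest with G536S, at 4.55, 4.49 and 3.85 (-0.71 and -0.64). The higher genes were the core subunits DPY30 (0.74) and WDR5 (0.64). The call of WDR5 was lost after quantile normalization (0.47).

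**Figure D5:**
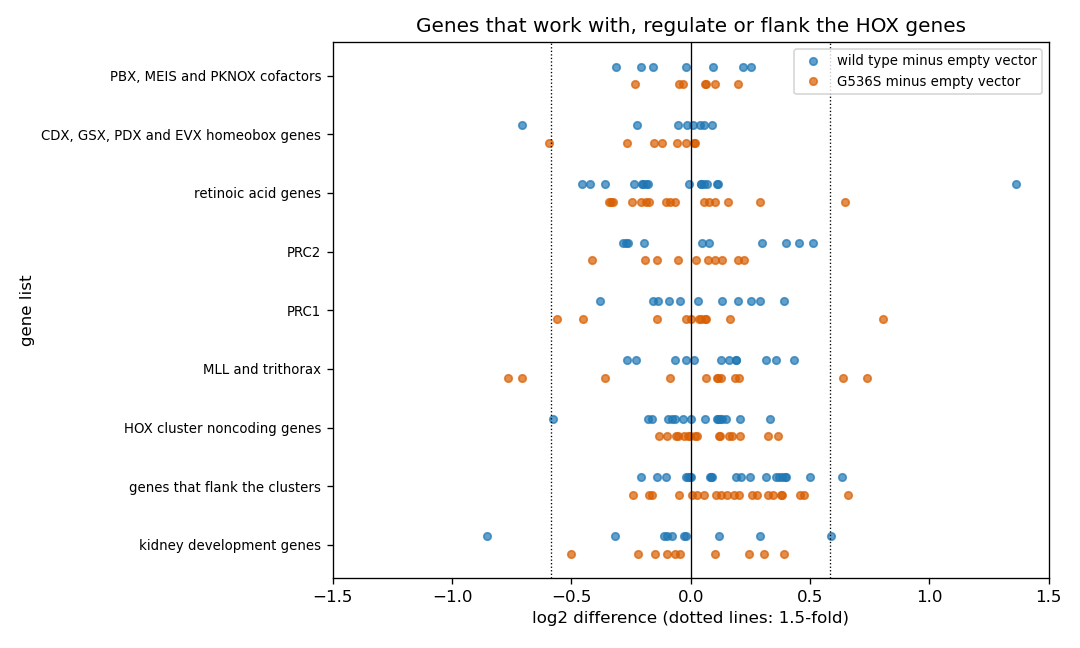
Log2 difference from the empty vector (horizontal axis) for each measured gene of 9 lists (vertical axis), wild type in blue and G536S in orange, 1 point per gene, dotted lines at 1.5-fold. CRABP2 is the far right point of the retinoic acid genes (1.36), CDX2 the far left point of its list (-0.71), and no cofactor passes a line.

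The clusters also make noncoding RNAs. Of 16 noncoding genes measured, 7 lay at or above the median gene and 0 were 1.5-fold apart as deposited. HOXC-AS1, an antisense gene of the HOXC cluster, read 1.85, 1.28 and 1.79, low with wild type as HOXC9 was, at -0.58 and just short of the line. It passed after quantile normalization (-0.67). HOXA11-AS read 2.09, 1.93 and 2.29, and HOTAIR, a HOXC transcript known for binding Polycomb proteins, read 1.63, 1.45 and 1.65. Others went the other way with both constructs: HOXA-AS3 differed by 0.33 with wild type and 0.37 with G536S, and HOXC13-AS by 0.059 and 0.32. The list's median was 0.030 with wild type and 0.021 with G536S, with 9 of 16 above 0 in each. The sources used here do not say whether the probe sets separate an antisense RNA from its sense partner.

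The miRNAs of the clusters are shown because miR-196 is known to cut HOXB8 RNA. The sequences are from RefSeq, with the seed (bases 2 to 8) in capitals. Of the forms shown, miR-196a-5p and miR-196b-5p share 1 seed, and miR-615-3p and miR-10a-5p have seeds of their own. The genes of miR-196a lie in HOXB (MIR196A1, chr17:48632532-48632553, minus strand) and HOXC (MIR196A2, chr12:53991762-53991783, plus strand), and the coordinates are those of the mature form in GRCh38.p14.
hsa-miR-196a-5p: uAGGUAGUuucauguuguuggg
hsa-miR-196b-5p: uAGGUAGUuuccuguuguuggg
hsa-miR-615-3p: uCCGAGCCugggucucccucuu
hsa-miR-10a-5p: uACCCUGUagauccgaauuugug

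The probe set of MIR196A1 read 1.26, 1.46 and 1.20, that of MIR196A2 0.87, 0.98 and 0.99, and that of MIR615 1.12, 1.24 and 1.30. All lay near or below the median gene, and the largest difference from the empty vector among them was 0.21. MIR10A and MIR196B had no probe set of their own and were not analysed here.

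Genes that flank the clusters were read to see whether neighbours outside the HOX family had the same differences. Of 21 measured, 15 were above 0 with wild type (median 0.19) and 17 with G536S (median 0.18). In all, 17 of the 21 lay at or above the median gene. Among all 11198 genes in that range, 7011 were above 0 with wild type (median 0.082) and 7154 with G536S (median 0.096). After quantile normalization the counts of the flanking genes were 13 and 14, with medians of 0.11 and 0.10. SKAP2, which flanks the HOXA cluster, read 2.28 in the empty vector array, 2.91 with wild type and 2.54 with G536S, so it was highest where HOXA2 was lowest (0.63, and 0.49 after quantile normalization). In the HOXC region SMUG1 and CBX5 were higher with wild type by 0.50 and 0.39, where HOXC11 and HOXC13 were lower. After quantile normalization SMUG1 and CBX5 were higher by 0.37 and 0.26. In the same region HNRNPA1 was also higher with wild type (0.38), while CALCOCO1 (-0.01) and ATP5MC2 (-0.10) were slightly lower. SNX11, on the HOXB1 side of the HOXB cluster, was higher with G536S by 0.66 and by 0.49 after quantile normalization. PRAC1 and NFE2, both below the median gene, were lower with each construct: PRAC1 differed by -0.21 and -0.24 and NFE2 by -0.14 and -0.18.

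Kidney development genes were read last, since HEK293T cells come from that organ. Of 10 measured, 7 lay at or above the median gene. With wild type 1 was at least 1.5-fold higher and 1 lower. Of all genes at or above the median gene, 5.42% were that much higher and 1.79% lower. With G536S 0 were called as deposited. After quantile normalization 2.25% of all genes were at least 1.5-fold lower with G536S. SIX2, which maintains nephron progenitors, read 3.85, 2.99 and 3.34, highest with the empty vector, at -0.86 with wild type and -0.50 with G536S, the latter -0.65 after quantile normalization and so past 1.5-fold. EYA1, which acts with group 11 HOX proteins in the kidney, read 5.47, 6.06 and 5.87. It was highest with wild type by 0.59, at the 1.5-fold line, and by 0.49 after quantile normalization. PAX2, also a partner there, read 1.82, 1.502 and 1.60, highest in the empty vector array. GATA3, a gene of the nephric duct, was higher with both constructs, by 0.29 and 0.31.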

How the data were processed

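The series holds 1 array for each of 3 groups. The authors deposited 1 log2 intensity per probe set and array, made with RMA per the submitters' processing notes, with no version or genome build stated in the sources used here. The base was inferred, since a natural log of 12.6, the highest value, lies above what 16 bits allow (11.1).

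Of 53617 probe sets, 23871 name 1 gene in the platform annotation, 1842 several and 27904 none. Symbols were updated through the Entrez ID (22569 matched), and a gene took its probe set with the highest mean. A difference is the log2 value in one array less that in another, counted at 1.5-fold and 2-fold. With no replicate no test was possible, and precision is limited by the number of arrays. The members and lists were chosen with earlier results of these data known. Named were all 24 members, TRAF7, and up to 4 genes of each list from those with the largest differences. EZH2, HOTAIR, PRAC1, NFE2, CALCOCO1, ATP5MC2, HNRNPA1, the miRNA genes and, among the markers, others were added for context.

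Alternatives were the mean of probe sets, quantile normalization, median centring, cyclic loess, a floor at the 25th percentile (0.863), and filters at the median and 75th percentile. Those from limma 3.58.1 (R 4.3.3) were the quantile and loess scalings, and other steps ran in Python 3.11.15 (numpy 2.4.6, pandas 2.3.3). Counting was tested on simulated data.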

Additional observations from a re-analysis of the deposited data

How the results depend on the processing

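With wild type against the empty vector, 4 members at least 1.5-fold lower and 0 higher were found under every alternative run, except that 0 were lower among the 5 members at or above the 75th percentile, since the 4 called genes lie below it. That filter likewise left 0 called members in both other comparisons. Quantile normalization gave 2 members lower with G536S against the empty vector in place of 1. The members' median with G536S against the empty vector was -0.0091 after quantile normalization, and that with wild type was 0.0007 after median centring, against 0.038 and -0.025 as deposited, so neither median has a settled sign. Differences of the 4 called genes moved by less than the robust spread of all genes under each scaling. All HOX genes had 1 probe set, so averaging probe sets moved none of them. No paired analysis was possible because each group has 1 array. Low signal limits most members: differences near background are compressed, and 5 of 24 lie at or above the 75th percentile of gene means.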

Other observations

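The 4 probe sets annotated to several HOX genes cannot be assigned to one of them, and their values are given as those of shared probe sets. The HOXB one, which names 2 genes, read 4.02 in the empty vector array, 3.63 with wild type and 4.10 with G536S, so the wild-type array was the lowest, at -0.38. The HOXC one, which names 3 genes, read 2.67, 2.50 and 2.60. The 2 HOXD ones, which name the same pair of genes, read 1.97, 1.60 and 1.66, and 1.40, 1.36 and 1.09. None of the 4 was 1.5-fold apart from the empty vector on either array.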
